A study of Mus musculus with 2 samples.

Results

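The replication-dependent histone genes encode the bulk of the histones that a dividing cell packs its new DNA with. They were taken as the protein-coding genes of the mouse annotation whose symbols start with Hist1, Hist2, Hist3 or Hist4, the older mouse histone names. There were 67 such genes among 21911 protein-coding genes on the assembled chromosomes, and 3 further genes with such symbols were annotated as pseudogenes and left out. By class, 6 encode the linker histone H1, 18 H2A, 18 H2B, 12 H3 and 13 H4. By cluster, 54 lie in Hist1 on chromosome 13, 10 in Hist2 on chromosome 3, 2 in Hist3 on chromosome 11 and 1, Hist4h4, on chromosome 6. The name does not make a gene replication-dependent: Hist1h1t, Hist1h2aa and Hist1h2ba carry such symbols and are known as the testis forms of H1, H2A and H2B.

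Open chromatin was mapped by DNase-seq, a method that digests nuclei with DNase I and sequences the ends of the cut fragments, so that accessible sites appear as short peaks. The tissue was healthy midbrain of mouse embryos of the strain B6NCrl at embryonic day 14.5, with males and females pooled. The samples formed a single group of 2 biological replicates, both listed under the same donor entry, so that the spread between them may in part be technical. No other tissue, age or treatment was analysed here, and values are therefore set beside those of all protein-coding genes.

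In a nucleosome, H2A pairs with H2B and H3 pairs with H4, and H1 sits on the DNA that enters and leaves the particle. The genes are known to be transcribed in S phase at histone locus bodies, where the coactivator NPAT gathers on their promoters. Their messages mostly lack introns and end in a conserved stem-loop in place of a poly(A) tail, and many H2A and H2B genes stand back to back around a common promoter.

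Each replicate came with its own list of peaks, nearly all 150 bp wide, with 710176 in replicate 1 and 267958 in replicate 2, and each peak carried the authors' signal value, a whole number from 1 to 150. These values are the authors' own and are not on a common scale between replicates: the median peak had 6 in replicate 1 and 51 in replicate 2. They are given side by side, and the rank of a peak is its percentile among all peaks of its own replicate. A peak was called shared when it overlapped a peak of the other replicate, which 24.7% of replicate 1 peaks and 64.0% of replicate 2 peaks did. As a check of the tissue label, all 10 listed regulators of midbrain development had a shared promoter peak, beside 69.0% of all protein-coding genes. Their median values, 62 in replicate 1 and 121 in replicate 2, were close to those of all genes, 60 and 122. Of 6 listed genes of liver, blood, muscle, skin and pancreas, Hbb-b1 was not found in the annotation under its name, and of the other 5 only Myh1, a muscle myosin gene, had such a peak, with 7 and 29. In bulk tissue, fewer cells with an open site and a weaker opening per cell cannot be told apart.

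A shared peak within 1000 bp of the start was found for 56 of the 67 histone genes (83.6%), against 15109 of all 21911 protein-coding genes (69.0%). In replicate 1 alone 58 members had a peak, beside 75.8% of all genes, and in replicate 2 alone 56 had a peak, beside 72.5%. With the authors' hotspots, broader regions of raised cutting, in place of peaks, 56 members were called, beside 69.5% of all genes. The members' share was below that of all genes with as many CpG dinucleotides in their promoters as the middle members (2973 of 3357, 88.6%). It was also below that of all genes with another gene's start within 1000 bp (2564 of 2744, 93.4%). With the 10 members of repeated sequence described below set aside, the share was 53 of 57 (93.0%), above the CpG-matched share and close to that of genes with a neighbouring start. Genes of repeated sequence were not set aside from those backgrounds, so these comparisons are not on equal terms. Over all protein-coding genes, leaving such genes out gave 14928 of 20168 (74.0%). No test was made of these differences, since there is a single group and genes are not replicates of a condition.

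The peaks of histone genes ranked high in both lists. The strongest promoter peak had a median value of 95 in replicate 1 and 135 in replicate 2 over the members, with genes without a peak counted as 0, against 60 and 122 over all protein-coding genes. The median rank was the 98.978th percentile in replicate 1 and the 96.544th in replicate 2 for members, against the 97.175th and the 93.706th for all genes. In replicate 1 this peak was in the top 5% of its list for 52 members (77.6%) and for 55.9% of all genes. In replicate 2 it was in the top 5% for 45 members (67.2%) and for 46.4% of all genes. In the crowded clusters the strongest peak within 1000 bp can belong to a neighbour. It lay outside the 250 bp on either side of the member's own start for 9 of the 56 members in replicate 1 and for 8 in replicate 2. The values below are therefore those of the strongest peak within 250 bp of the start unless stated.

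**Figure D1:**
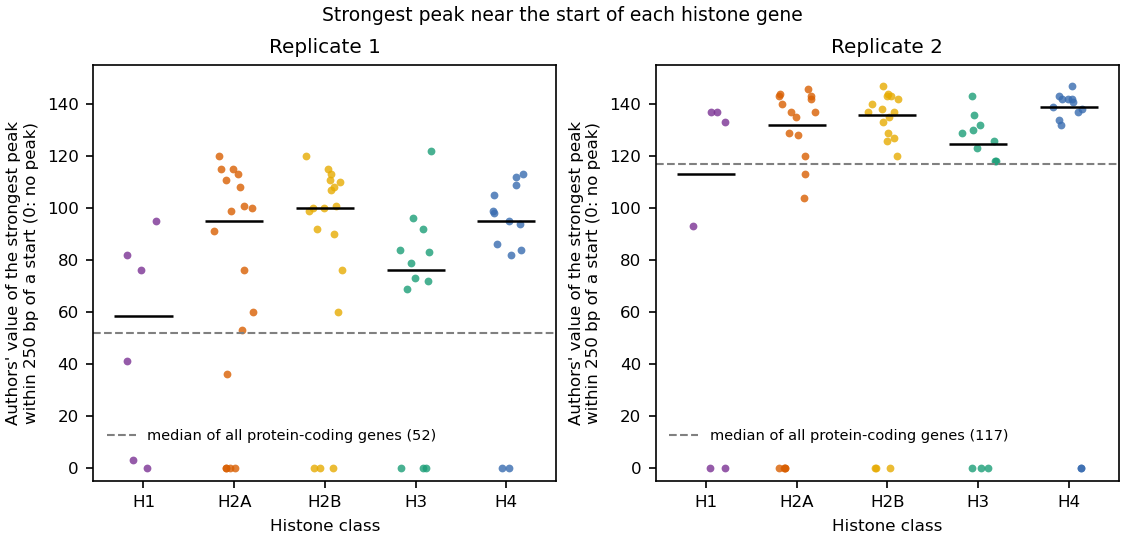
Each point is 1 histone gene, placed by class, with the authors' value of the strongest peak within 250 bp of its start on the vertical axis (0 where there was no peak). Black bars are class medians, the dashed line is the median of all protein-coding genes (52 in replicate 1 and 117 in replicate 2), and most H2A, H2B, H3 and H4 genes lie above it in both replicates.

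Within 250 bp of the start, the median value was 91 in replicate 1 and 133 in replicate 2 over the members, against 52 and 117 over all protein-coding genes. Every median in this paragraph includes the genes without a peak, ranked below all peaks. H4 genes with a peak had the narrowest range. The 11 H4 genes with a peak had values of 82 to 113 in replicate 1 and 132 to 147 in replicate 2, with class medians of 95 and 139. H2B genes had medians of 100 and 136 and H2A genes of 95 and 132. The values of these 2 classes are not separate, since 9 pairs of an H2A and an H2B gene have a common peak that counts for both. H3 genes had lower medians, 76 and 124.5, and H1 genes the lowest, 58.5 and 113. The place of H1 below H3 in replicate 2 rests on the genes without a peak. In that replicate 4 of 6 H1 genes had a peak near the start. Their values were 93 at Hist1h1b, 133 at Hist1h1c and 137 at Hist1h1a and Hist1h1e. The 9 of 12 H3 genes with a peak had 118 to 143. Hist1h1d and Hist1h3f, without a peak near the start in replicate 2, had 119 and 126 near the start codon. Classes overlapped in every case: the plot of values by class shows H3 and H1 genes inside the range of the H4 genes.

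Where members shared a promoter with each other, they were mostly H2A and H2B genes. Partners outside the members were not counted here, and other classes have some. The start of Gm11335, a long noncoding RNA gene, lies 107 bp from that of Hist1h4h. Antisense genes start 266 bp from Hist2h3c2 and 305 bp from Hist2h3c1. There were 13 pairs of members that point away from each other with starts at most 1000 bp apart, 26 genes in all, and 12 of these pairs join an H2A gene to an H2B gene. A shared peak lay between the starts in 10 of the 13 pairs (76.9%), against 687 of 754 divergent pairs over all protein-coding genes (91.1%). Of the pairs without a peak, Hist1h2bq with Hist1h2ao and Hist1h2ap with Hist1h2br lie in the repeated sequence described below. Neither share leaves out repeated sequence. In 9 of the 10 pairs with a peak, it was the strongest of both genes at once in replicate 1, the exception being Hist1h2bh and Hist1h3f. In replicate 2 this also held for 9 of the 10, the exception being Hist2h2ac and Hist2h2be. The 9 include Hist1h2bh and Hist1h3f only through a tie, since another peak near both genes had the same value of 126 in replicate 2. The starts of the H2A and H2B pairs with a peak stand 176 to 302 bp apart, so that a single peak fills much of the space between them, as the drawing of the pairs shows.

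**Figure D2:**
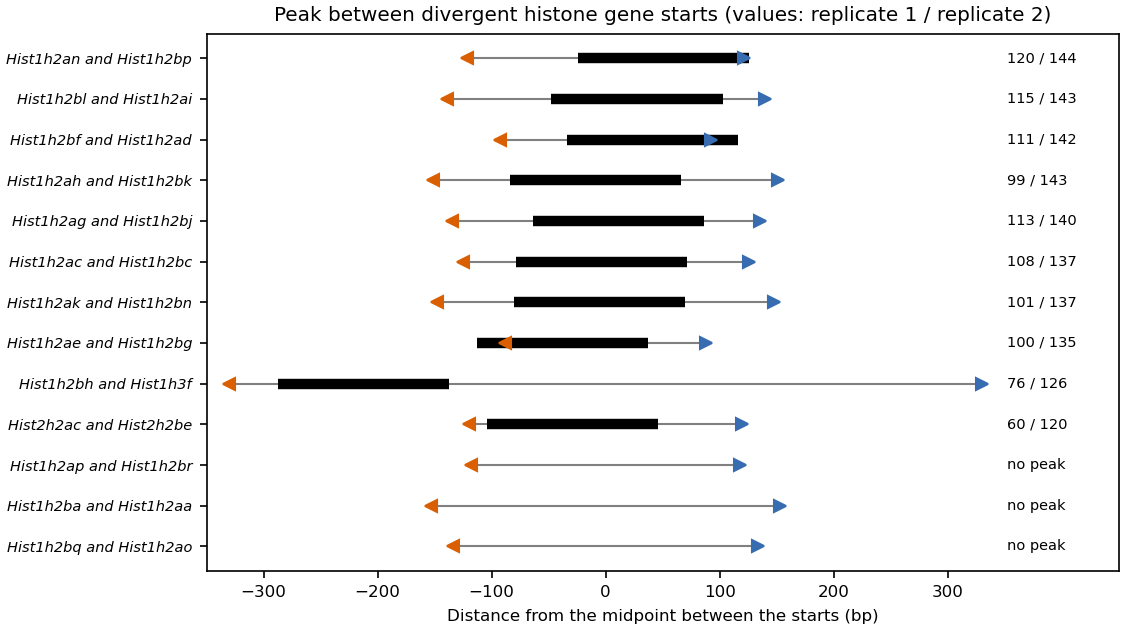
The 13 divergent pairs are drawn to scale along the horizontal axis (distance from the midpoint between the starts, in bp), with orange arrowheads at the gene on the minus strand, blue arrowheads at the gene on the plus strand and the replicate 2 peak as a black bar. The figures at the right are the authors' values in replicate 1 and replicate 2, from 120 and 144 for Hist1h2an and Hist1h2bp down to 60 and 120 for Hist2h2ac and Hist2h2be, and the bottom 3 pairs had no peak.

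The pair with the strongest peak was Hist1h2an and Hist1h2bp, with a peak at chr13:21787316-21787465 (mm10) of value 120 in replicate 1 and 144 in replicate 2. Next came Hist1h2bl and Hist1h2ai with 115 and 143, at chr13:21716236-21716385. The weakest of the open pairs was Hist2h2ac and Hist2h2be in the Hist2 cluster, with 60 in replicate 1 and 120 in replicate 2, at chr3:96220896-96221045 in replicate 2. The other 6 open H2A and H2B pairs ranged from 99 to 113 in replicate 1 and from 135 to 143 in replicate 2. Below are the stretches between the starts of the strongest pair, of the weakest open pair and of Hist1h2bq and Hist1h2ao, a pair without a peak. They lie at chr13:21787219-21787460, chr3:96220881-96221118 and chr13:21810198-21810464 and are read on the plus strand of GRCm38, from the start of the gene on the minus strand to that of its partner. Capitals mark exact matches on either strand to TATAAA, the TATA box. They also mark CCAAT, the box that the factor NF-Y is known to bind, and the octamer ATTTGCAT, to which POU2F1 is known to bind.
Hist1h2an and Hist1h2bp: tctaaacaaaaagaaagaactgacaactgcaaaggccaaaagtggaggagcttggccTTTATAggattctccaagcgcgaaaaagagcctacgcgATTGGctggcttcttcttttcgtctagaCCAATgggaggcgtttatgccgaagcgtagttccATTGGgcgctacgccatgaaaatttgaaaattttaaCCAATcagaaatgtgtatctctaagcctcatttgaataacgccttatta
Hist2h2ac and Hist2h2be: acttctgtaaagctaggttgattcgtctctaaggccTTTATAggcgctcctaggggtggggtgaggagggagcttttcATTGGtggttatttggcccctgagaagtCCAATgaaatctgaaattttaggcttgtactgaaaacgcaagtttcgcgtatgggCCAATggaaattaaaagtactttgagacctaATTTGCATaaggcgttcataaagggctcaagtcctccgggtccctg
Hist1h2bq and Hist1h2ao: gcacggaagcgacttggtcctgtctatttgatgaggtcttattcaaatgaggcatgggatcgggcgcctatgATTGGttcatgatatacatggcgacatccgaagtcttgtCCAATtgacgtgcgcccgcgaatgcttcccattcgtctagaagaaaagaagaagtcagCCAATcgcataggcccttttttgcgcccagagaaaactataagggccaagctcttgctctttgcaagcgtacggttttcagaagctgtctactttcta
The strongest pair has 4 CCAAT matches over 242 bp, the weakest open pair has 3 over 238 bp together with an octamer, and the pair without a peak has 3 over 267 bp. Matches to TATAAA were present in some pairs and absent from others, both with and without a peak. The open pairs Hist1h2bl with Hist1h2ai, Hist1h2ag with Hist1h2bj and Hist1h2bh with Hist1h3f have none. The other open pairs each have at least 1. Of the pairs without a peak, Hist1h2ba and Hist1h2aa each have at least 1. Hist1h2bq with Hist1h2ao and Hist1h2ap with Hist1h2br, whose sequence is repeated, have none. Any link between these matches and the peaks was not tested.

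The only pair of other classes was Hist1h2bh and Hist1h3f, whose annotated starts stand 660 bp apart. The peak between them, at chr13:23543436-23543585, had 76 in replicate 1 and 126 in replicate 2 and lay next to Hist1h2bh. Hist1h3f had a peak of its own at chr13:23544316-23544465, with 100 and 126, which lies 338 bp past its annotated start and 95 bp before its start codon. A pseudogene stood in the place of a partner for Hist3h2a, Hist1h2bm and Hist1h2bb. The start of the Hist3h2a partner, Hist3h2bb-ps, is 173 bp away, and the Hist3h2a promoter had 115 in replicate 1 and 146 in replicate 2. Hist2h2ab shared its promoter with Bola1, a mitochondrial protein gene whose start is 156 bp away, and had 91 and 128.

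Among single H2A genes Hist1h2ab was the lowest with a peak at the start in mostly single-copy sequence, with 53 in replicate 1 and 113 in replicate 2. Among H2B genes the highest mean rank belonged to Hist2h2bb, with 107 and 147 at chr3:96269536-96269685, followed by Hist1h2bp and Hist1h2bl of the pairs above. Hist3h2ba had 110 and 138. Hist1h2be is a case where the annotation places the start 35168 bp from the start codon, near Hist1h1e. At that start it had 92 in replicate 1 and 133 in replicate 2, and at its start codon a separate peak at chr13:23585936-23586085 had 95 and 129, so that the gene was open at either position.

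H3 genes were led by Hist1h3e, with 122 in replicate 1, the highest value of any member there, and 143 in replicate 2, at chr13:23562416-23562565 in replicate 2. Hist2h3b and Hist1h3a also ranked among the top 3 of the class within 1000 bp, through the peaks of their neighbours Hist2h2bb and Hist1h4a. At their own starts Hist2h3b had 69 and 118, and Hist1h3a had 73 and 118. These were the lowest values among the 9 H3 genes with a peak near the start, apart from 72 in replicate 1 at Hist1h3i, which had 126 in replicate 2. The lowest ranks of the class fell to Hist2h3c2 and Hist2h3c1, which are described with the repeated genes below.

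H4 genes were led by Hist1h4c, with 112 in replicate 1 and 147 in replicate 2 at chr13:23698456-23698605, the highest replicate 2 value of any member, equal to that of Hist2h2bb. Hist1h4h had 105 and 142 at its start, and Hist1h4d had 109 and 143. Outside the Hist1 cluster, Hist2h4 had 98 and 142, and Hist4h4, which stands alone on chromosome 6, had 94 and 139 at chr6:136804376-136804525. Its values lay inside the range of the clustered H4 genes in both replicates. The sequences below are the 200 bases before the starts of the leading H4 gene, of the isolated H4 gene and of the leading H3 gene (chr13:23698455-23698654, chr6:136804416-136804615 and chr13:23562370-23562569, minus strand of GRCm38), written 5′ to 3′. They are examples of the short elements before these starts, and the counts over each class follow below. Capitals mark CCAAT on either strand and GGTCCG, the core of the H4 promoter site that the factor HINFP is known to bind.
Hist1h4c: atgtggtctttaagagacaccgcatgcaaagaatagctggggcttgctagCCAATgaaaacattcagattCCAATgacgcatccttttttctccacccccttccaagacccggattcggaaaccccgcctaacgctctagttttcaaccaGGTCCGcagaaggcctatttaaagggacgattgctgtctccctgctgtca
Hist4h4: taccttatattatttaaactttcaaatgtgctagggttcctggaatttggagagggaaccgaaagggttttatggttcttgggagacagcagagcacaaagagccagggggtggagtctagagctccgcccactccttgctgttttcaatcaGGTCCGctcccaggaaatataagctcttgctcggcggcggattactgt
Hist1h3e: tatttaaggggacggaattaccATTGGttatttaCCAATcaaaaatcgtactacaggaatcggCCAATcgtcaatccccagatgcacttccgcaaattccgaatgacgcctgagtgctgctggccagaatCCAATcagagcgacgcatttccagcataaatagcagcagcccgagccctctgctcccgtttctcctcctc
Both H4 promoters hold GGTCCG, at -50 bp from the start in Hist1h4c and at -48 bp in Hist4h4, and Hist1h4c also has 2 CCAAT matches. The Hist1h3e promoter has no GGTCCG and 4 CCAAT matches.

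H1 genes had a peak over the start itself. Hist1h1e had 95 in replicate 1 and 137 in replicate 2 at chr13:23622476-23622625, Hist1h1a had 76 and 137, and Hist1h1c had 82 and 133. Within 1000 bp of Hist1h1c another peak, centred 982 bp into the gene in replicate 2, had 103 and 135. Hist1h1b was weaker, with 41 in replicate 1 and 93 in replicate 2. Hist1h1d had only 6 weak peaks of values 2 to 7 in replicate 1 and none in replicate 2 around its annotated start, which lies 1828 bp before its start codon. At its start codon a shared peak at chr13:23554956-23555105 had 54 in replicate 1 and 119 in replicate 2. Counted at the start codon, 5 of the 6 H1 genes were open, and Hist1h1t was the exception.

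The Hist2 cluster on chromosome 3 had 9 of its 10 members open (90.0%), against 44 of 54 in Hist1 (81.5%) and 69.0% of all protein-coding genes. Both members of Hist3 and the single member of Hist4 were open. Within 1000 bp the median value was 60 in replicate 1 and 124 in replicate 2 in Hist2, against 97.5 and 135 in Hist1. The Hist2 medians were close to those of all protein-coding genes, 60 and 122. The Hist2 cluster held 4 of the repeated genes described next, and these had the lowest values of the cluster. Its other members had 60 to 107 in replicate 1 and 118 to 147 in replicate 2 at the start.

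The 11 members without a shared promoter peak fell into 3 kinds. The first are 7 genes whose sequence is repeated. Short reads can be placed at a single position only where the sequence occurs once, and this was measured as the share of 31-base words within 150 bp of the start that occur once in the assembly. The share was at most 11.439% for 10 members, beside 7.95% of all protein-coding genes with a share under 50%, and the next lowest was 53.137%, at Hist1h4k. Of these 10 members 3 were open (30.0%), against 53 of the other 57 (93.0%). Over all protein-coding genes, 181 of 1743 with a share under 50% were open (10.4%), against 14928 of 20168 with a higher share (74.0%). How the authors treated reads that align to several places is not given in the sources used here, and its part in the missing peaks was not tested.

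**Figure D3:**
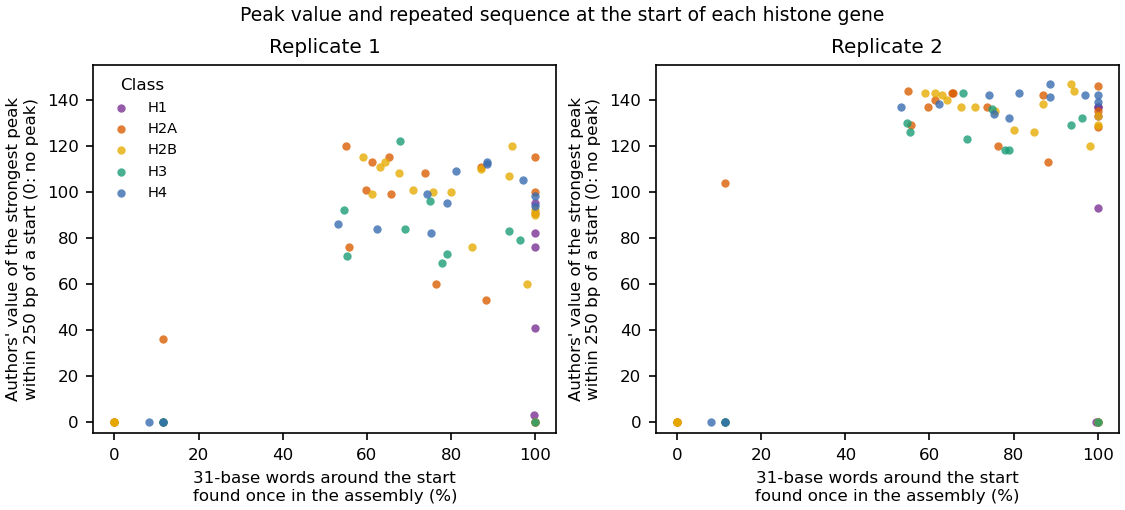
Each point is 1 histone gene, coloured by class, with the percentage of 31-base words within 150 bp of the start that occur once in the assembly on the horizontal axis and the authors' value of the strongest peak within 250 bp of the start on the vertical axis (0: no peak). The 10 genes at 11.439% or less stand apart at the left, and 1 of them, Hist2h2aa1, had a peak near its start (36 in replicate 1 and 104 in replicate 2).

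Of these 10 genes 6 form an inverted duplicate in the Hist1 cluster: Hist1h2bq, Hist1h2ao and Hist1h4m, facing Hist1h4n, Hist1h2ap and Hist1h2br. None had a peak or hotspot within 1000 bp in either replicate. The stretch from start codon to start codon of Hist1h2bq and Hist1h2ao, 295 bp, has 0 mismatches to that of Hist1h2br and Hist1h2ap, and the identical run around it is 10523 bp long. The stretch printed above for Hist1h2bq and Hist1h2ao is therefore present in both copies, letter for letter. The other 4 form an inverted duplicate in the Hist2 cluster, where 88.561% of the words around Hist2h3c1 and Hist2h2aa1 are shared with Hist2h3c2 and Hist2h2aa2. Hist2h3c1 had no peak. Hist2h3c2 was open only through a peak at chr3:96237996-96238145, with 6 in replicate 1 and 53 in replicate 2. It was centred 1057 bp downstream of the start, past the annotated end of the gene. Hist2h2aa2 was open through a peak of 9 at -714 bp in replicate 1 and of 38 at -674 bp in replicate 2. Its strongest peak in replicate 2, with 86 at -334 bp, was not shared. Hist2h2aa1 had 36 at -287 bp in replicate 1 and 104 at -307 bp in replicate 2. The peaks of these genes were thus centred over 250 bp from the start.

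The second kind are the 3 testis forms, whose sequence is single-copy (100% of words). Hist1h2aa and Hist1h1t had no peak within 1000 bp in either replicate. Hist1h2ba had a single peak in replicate 1, of value 5, and none in replicate 2. It was centred 986 bp downstream of the start, past the annotated end of the gene. Hist1h2ba and Hist1h2aa form the third divergent pair without a peak, with starts 306 bp apart. Hist1h1t stands 2640 bp from the start of Hist1h4c, the member with the highest mean rank. The third kind is Hist1h1d, whose peak lay at the start codon. The 200 bases before the starts of Hist1h1e, of Hist1h1t and of Hist1h2ba are given to set an open H1 gene beside the testis forms (chr13:23622559-23622758 on the minus strand, chr13:23695614-23695813 on the plus strand and chr13:23934157-23934356 on the minus strand of GRCm38, written 5′ to 3′). Capitals mark the same TATA box, NF-Y box and octamer as above and also AAACACA, the H1 box, on either strand.
Hist1h1e: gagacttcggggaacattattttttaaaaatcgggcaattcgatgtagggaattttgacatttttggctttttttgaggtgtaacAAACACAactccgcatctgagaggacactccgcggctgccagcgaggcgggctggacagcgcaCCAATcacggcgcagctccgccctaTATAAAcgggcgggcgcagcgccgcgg
Hist1h1t: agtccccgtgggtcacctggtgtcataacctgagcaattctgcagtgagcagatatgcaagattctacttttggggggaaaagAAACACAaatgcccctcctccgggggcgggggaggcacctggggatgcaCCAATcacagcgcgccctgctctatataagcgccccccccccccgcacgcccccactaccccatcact
Hist1h2ba: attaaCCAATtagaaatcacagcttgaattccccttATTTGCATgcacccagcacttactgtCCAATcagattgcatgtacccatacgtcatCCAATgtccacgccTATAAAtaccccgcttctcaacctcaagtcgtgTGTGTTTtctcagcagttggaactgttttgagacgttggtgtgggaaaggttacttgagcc
Hist1h1t has the H1 box at -117 bp, against -115 bp in Hist1h1e, and CCAAT at -68 bp, against -52 bp. Neither Hist1h1t nor the open Hist1h1c has an exact match to TATAAA. Near variants of the box, such as the tatataag in the Hist1h1t sequence, were not searched. Hist1h2ba has a TATAAA match at -94 bp, an octamer and 3 CCAAT matches, and it had no shared peak.

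**Figure D4:**
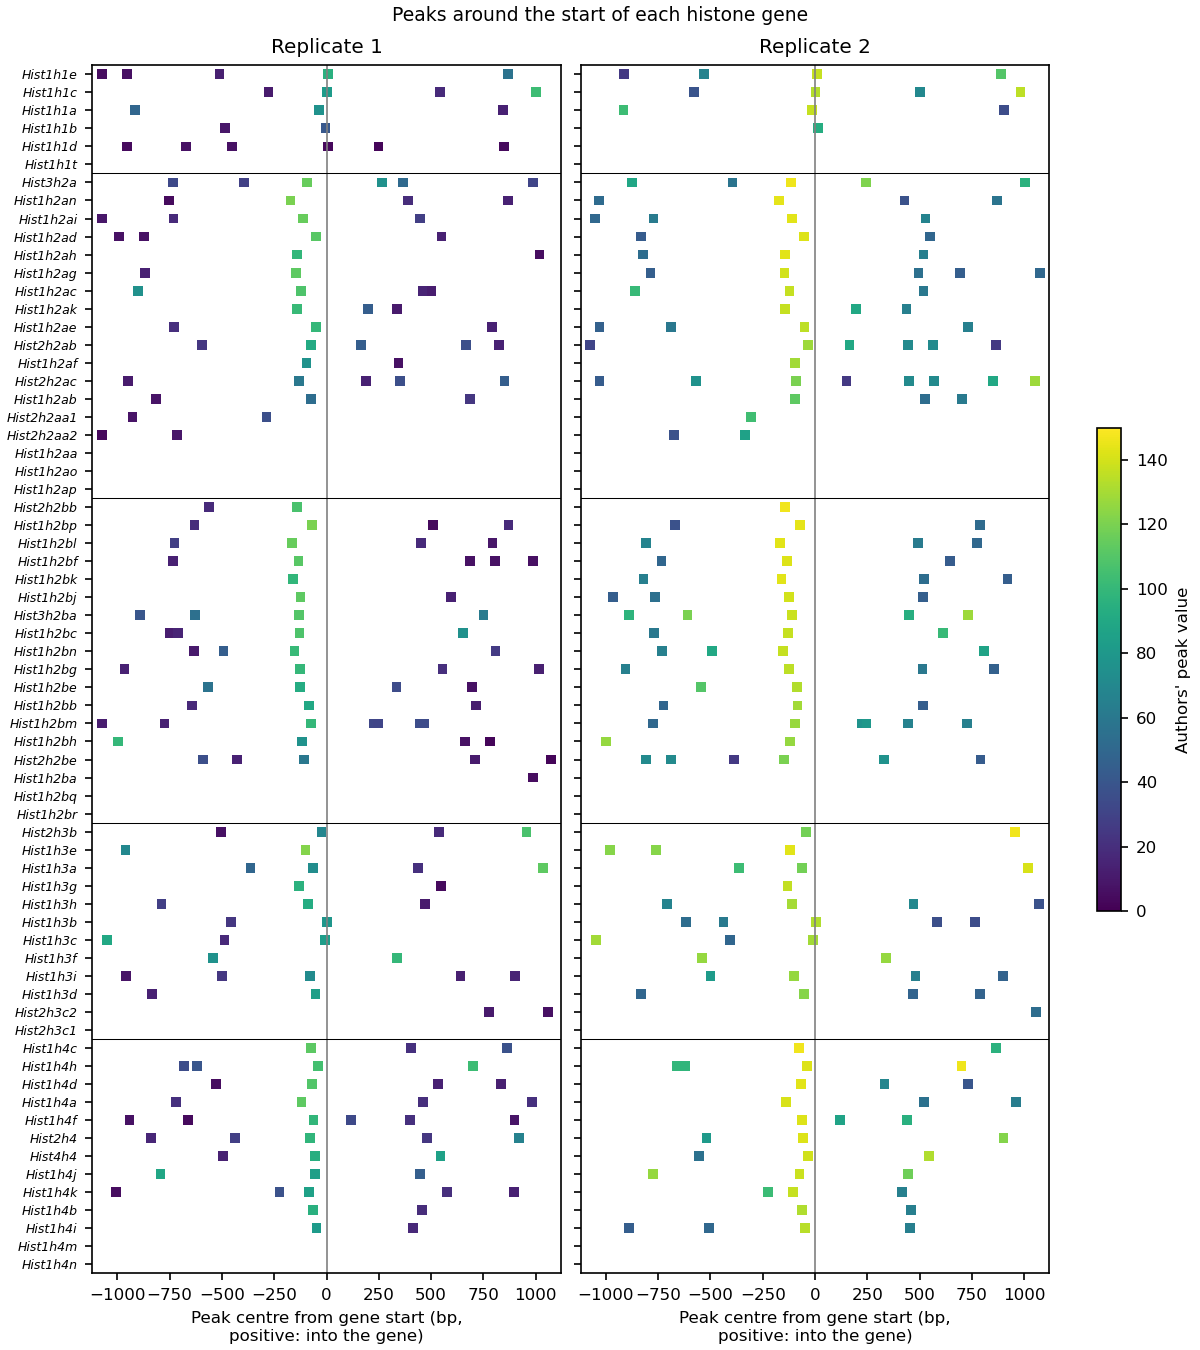
Every peak within about 1000 bp of each histone gene start is a square at its centre, coloured by the authors' value from 0 to 150. The horizontal axis is the distance from the gene start in bp, positive in the direction of the gene, also past its end. Genes are in rows grouped by class (H1 at the top, then H2A, H2B, H3 and H4). A column of strong peaks stands just upstream of the start in both replicates, at the start itself in H1 genes and farther upstream in H2A and H2B genes, and empty rows are genes without a peak.

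The position of the peak differed by class. The centre of the strongest peak near the start lay at a median of -117 bp in replicate 1 and -113.5 bp in replicate 2 from the start for H2A genes, and at -126 bp in both replicates for H2B genes. It lay at -64 bp in both replicates for H3 genes and at -63 bp in both for H4 genes. For H1 genes it lay at +2 bp in replicate 1, over 5 genes, and at +5 bp in replicate 2, over 4 genes. The 5 include Hist1h1d, whose peak near the start in replicate 1 had a value of 3 and was not shared. All H2A, H2B and H4 genes with a peak near the start had its centre upstream. A peak common to an H2A and H2B pair counts for both classes. The annotated start limits this measure: for 11 members it is the first base of the start codon, and the median distance from the start to the start codon was 33 bp.

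Weaker peaks flanked the main one, as the map of peak positions shows. Among the 52 open members with mostly single-copy sequence other than Hist1h2be, 48 in replicate 1 and 47 in replicate 2 had a peak centred in the 250 bp before the start, with median values of 99 and 137. From 250 to 500 bp downstream of the start 19 members had a peak in each replicate, with median values of 21 and 66. In the first 250 bp of the gene only 8 members in replicate 1 and 10 in replicate 2 had a peak. Open members with a single start had a median of 3.5 peaks per promoter in replicate 1 and 3 in replicate 2, against 3 and 2 for all open protein-coding genes with a single start. A peak counts for every start within 1000 bp, so in the crowded clusters these numbers include peaks at the starts of neighbours.

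The promoters differed by class in their short elements, which were counted as exact matches on either strand from 250 bp before to 50 bp after the start. TATAAA was present in 37 of the 67 members, against 12.6% of all protein-coding promoters. A match at any position in this stretch counts, so it need not be the TATA box of that gene. The first base of the matches lay at a median of -29.5 bp in H1 genes but -185 bp in H2B genes. Matches reached 30 bp past the start in H2A genes and 22 bp past it in H4 genes. CCAAT was present in 56 members, against 39.0% of all promoters. All 18 H2A genes and all 18 H2B genes had it, as did 11 of 12 H3 genes and 5 of 6 H1 genes, but only 4 of 13 H4 genes. The octamer ATTTGCAT was found in 7 H2A and 8 H2B genes and in no other member, against 1.57% of all promoters. A match in the shared promoter of a pair counts for both of its genes.

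GGTCCG was found in 15 members, against 9.58% of all promoters, and 12 of these were H4 genes. Its first base lay at a median of -49 bp in the H4 genes, from -80 to -11 bp, and the H4 gene without it was Hist1h4a. Hist1h4a had instead 4 matches to TTTCCCGC, the site bound by E2F factors, which was found in 3 members, all of them H4 genes, against 1.34% of all promoters. AAACACA, the H1 box, was found in 9 members, against 6.4% of all promoters. It was present in 4 of 6 H1 genes, Hist1h1b, Hist1h1c, Hist1h1e and Hist1h1t, each time between -117 and -113 bp. The number of CpG dinucleotides in these 300 bp had a median of 11 over the members and also 11 over all genes.

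**Figure D5:**
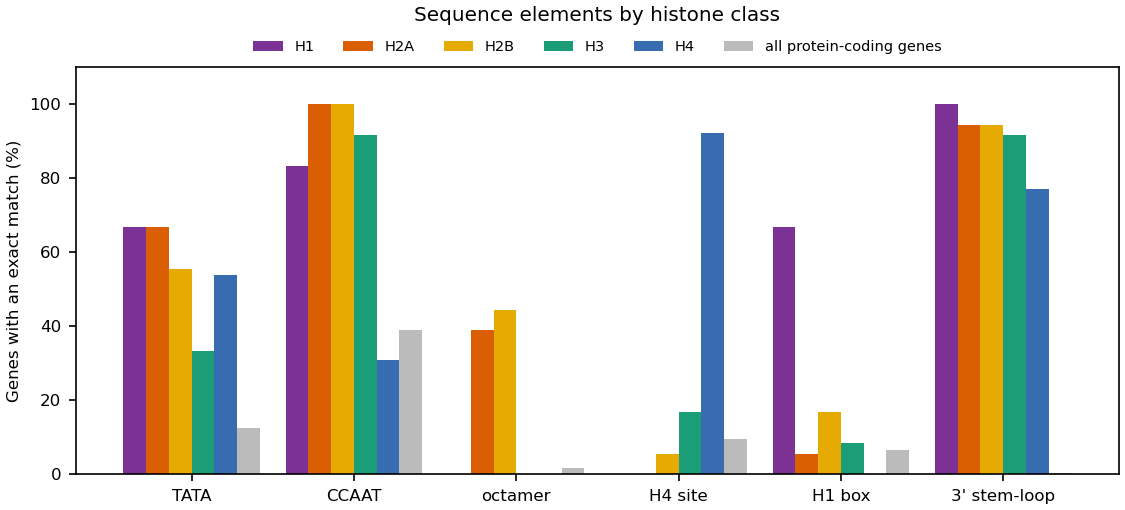
Bars give the percentage of genes with an exact match to each element on either strand (TATA box, NF-Y box CCAAT, octamer, H4 site and H1 box, spelled out in the text, all from -250 to +50 bp) or to the stem-loop within 100 bp after the stop codon, by class, with all protein-coding genes in grey at the right of each set. CCAAT reaches 100% in H2A and H2B genes, the H4 site stands out in H4 genes and the stem-loop is all but absent from the grey bars (0.29%).

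At the other end of the gene, the stem-loop that the stem-loop binding protein SLBP holds was searched as an exact match to its consensus, free at the 3 positions where the versions printed here differ, on the gene's strand within 100 bp after the stop codon. It was found in 61 of the 67 members (91.0%), against 63 of 21727 protein-coding genes with an annotated stop codon (0.29%). Both genes with it that were not members were histone genes as well, H2afx and H2bfm. Its first base lay a median of 31 bp after the stop codon, from 22 to 59 bp. The 61 matches came in only 5 versions, and in each of the 5 the first 6 bases are the reverse complement of the last 6. The consensus used for the search already sets this pairing, apart from the free base in each arm. The 3 commonest, found in 41, 9 and 8 members, are printed first, followed by the closest windows of Hist1h2an, Hist1h3g, Hist1h4a and Hist1h4b, where lower case marks the mismatches.
Version in 41 members: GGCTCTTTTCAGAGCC
Version in 9 members: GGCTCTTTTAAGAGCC
Version in 8 members: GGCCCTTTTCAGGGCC
Hist1h2an: GGCTCTTTTCAGAGCt
Hist1h3g: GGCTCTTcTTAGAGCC
Hist1h4a: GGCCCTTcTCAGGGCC
Hist1h4b: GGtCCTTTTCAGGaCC
The 6 members without an exact match were these 4, Hist1h4j, whose closest window has the same letters as that of Hist1h4b with 2 mismatches, and Hist2h2be, whose closest window has 5 mismatches. All 3 testis forms have the stem-loop although they had no shared peak.

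Factors that act on histone genes were described from a list of 23. All 23 listed factors of histone promoters and histone mRNA had a shared promoter peak, beside 69.0% of all protein-coding genes. The highest ranks were those of Nfya, a subunit of the CCAAT-binding factor NF-Y, with 138 in replicate 1 and 150 in replicate 2, of Casp8ap2, a component of the histone locus body, with 127 and 149, and of Sympk, the scaffold of the histone mRNA cleavage complex, with 131 and 148. The coactivator gene Npat had 131 and 147, Hinfp, whose product binds H4 promoters, had 133 and 147, and Slbp, whose product binds the stem-loop, had 116 and 144. Gon4l was the lowest with 24 and 67. All 10 listed histone chaperones were open too, beside the same 69.0%, led by Hjurp, the chaperone of the centromeric H3 variant, with 148 and 150, by Asf1b, a chaperone of H3 and H4, with 128 and 150, and by Daxx, a chaperone of H3.3, with 127 and 148. Their medians were 115 in replicate 1 and 145.5 in replicate 2.

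Of the histone genes outside the clusters, 11 of 16 were open (68.8%), about the share of all protein-coding genes (69.0%), and 2 more on the list were not found in the annotation under their names. These are mostly variants made throughout the cell cycle. The highest ranks were those of H3f3b, which encodes H3.3, with 131 in replicate 1 and 148 in replicate 2, of H2afv with 126 and 148 and of H2afx with 120 and 148. The 5 without a peak in either replicate were the oocyte linker histone gene H1foo, the spermatid linker histone gene H1fnt, and H2afb1, H2afb2 and H2afb3, variants known from the testis.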

How the data were processed

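DNase-seq peaks of 2 biological replicates were used, on assembly mm10 per the labels. Per the deposited readme, each replicate's peaks and hotspots were derived from its own alignment. Aligner and peak caller were not given in the sources used here. All peaks carry the authors' signal value, and each hotspot the authors' −log10 q value, which served only to describe the list: hotspots were used by position. Read depth is unknown. Genes, starts and codons came from GENCODE M21 and sequence from the GRCm38.p6 assembly of RefSeq, in which 99.8% of 27531 annotated start codons checked read ATG. A promoter reached 1000 bp to each side of a start, and peaks were shared at an overlap of at least 1 bp. No test was made. The overlap step, tested on simulated data, found 800 of 800 planted overlaps among 2000. Python 3.11.15, numpy 2.4.6, pandas 2.3.3 and matplotlib 3.10.9 were used. Named were members without a shared peak, the 3 highest and 2 lowest ranks per class, all of Hist2 to Hist4, the 3 highest and those without a peak of each other list, and the highest and lowest pairs. Other genes were singled out after their values were seen. The members and lists were chosen with earlier results of these data known.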

Additional observations from a re-analysis of the deposited data

How the results depend on the processing

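Under 15 other settings the number of histone genes with a shared promoter peak lay between 53 and 59, against 56. A 250 bp window gave 53, losing Hist1h3f, Hist2h2aa2 and Hist2h3c2, and a 2000 bp window gave 59, adding Hist1h1d, Hist1h1t and Hist2h3c1. Without replicate 1 the count was 56 and without replicate 2 it was 58, with Hist1h1d and Hist1h2ba added. Counting each peak only for its nearest start gave 54, losing Hist1h2ag and Hist1h2bk. Leaving out 1 replicate in turn gave 4 to 5 open H1 genes, 15 H2A, 15 to 16 H2B, 11 H3 and 11 H4 genes, 10 open pairs, and 15875 to 16614 of all genes. The divergent pairs with a peak were recounted under 8 alternatives and numbered 10 in 7 of them and 9 with a spacing of at most 500 bp. Restricting the background to genes in the CpG range of the middle members gave 2973 open genes, and restricting it to genes with another start within 1000 bp gave 2564, since fewer genes enter. Start codons as starts (57 members and 11341 genes, since fewer genes have an annotated codon) and leaving out the repeated members (53) were chosen after seeing the data. No paired analysis was possible because there is a single group. The authors' values are not scaled between replicates and the read depth is unknown, so a missing peak does not show that a site is closed.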

Other observations

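The Hist1 genes stand in 2 blocks on chromosome 13, with 23 members at chr13:21715143-22044214 and 31 members at chr13:23530050-23935462 (mm10). The first block held 61 shared peaks farther than 1000 bp from any protein-coding start, 185.37 per Mb, against 49.913 per Mb over chromosomes 1 to 19, X and Y. Many of them lay near transfer RNA genes, which RNA polymerase III transcribes. RefSeq places 31 tRNA genes in this block, 26 of them had a shared peak within 250 bp, and 39 of the 61 peaks lay that near one. Without these the block had 66.855 per Mb, against 49.797 per Mb over all chromosomes. The second block, with 1 tRNA gene, had 54.266 per Mb.

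Between the blocks lie 39 other protein-coding genes, 35 of them Vmn1r genes, which encode pheromone receptors of the vomeronasal organ. Of the 39 genes 5 had a shared promoter peak, and of the 35 Vmn1r genes 1 did, against 44 of the 54 Hist1 genes on either side. Over all protein-coding genes the share was 69.0%. How much of the sequence at the Vmn1r starts is repeated is not given here. The 45 tRNA genes of this stretch were mostly open, 39 of them with a shared peak within 250 bp, against 254 of 403 tRNA genes over all chromosomes. Away from tRNA genes the stretch had 26.921 shared peaks per Mb far from protein-coding starts. No test was made of these differences.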
